A study of Mus musculus with 16 samples.

Results

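The 10 genes described here mark the stem cells at the base of the intestinal crypt or are targets of the Wnt signal that maintains them: Lgr5, Ascl2, Olfm4, Smoc2, Tnfrsf19, Axin2, Rnf43, Znrf3, Sox9 and Slc12a2. They form a list of known genes, were found by their symbols, and each was 1 row among the 24940 genes of the count table. The list was chosen with earlier results of these data known. The shares of all genes given beside it are therefore a description and not an independent test. All 10 passed the filter on low counts of the main test, edgeR, in every comparison. Poly(A) RNA was sequenced from the last centimeter of the ileum of 16 C57BL/6 mice, in 4 groups of 4. Control mice, Bcl6fl/fl (WT), carry loxP sites in both copies of Bcl6, the gene of a transcriptional repressor. Bcl6LKO mice (LKO) carry the same floxed alleles and Cre recombinase under the albumin promoter, which is active in hepatocytes, so that Bcl6 is deleted in the liver while the ileum keeps the gene. Both genotypes were studied in males and in females, and the ages of the mice are not given in the sources used here. The comparison of interest is whether deletion of Bcl6 in the liver changed these genes in the gut, and whether it did so alike in the sexes.

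The small intestinal epithelium is renewed from stem cells that sit between Paneth cells at the crypt base. Wnt ligands bind Frizzled and LRP receptors, beta-catenin then accumulates and enters the nucleus, and with TCF/LEF factors it turns on target genes. R-spondins strengthen the signal by binding LGR receptors and removing the ubiquitin ligases RNF43 and ZNRF3, which otherwise clear Frizzled from the cell surface. AXIN2 is part of the complex that degrades beta-catenin. Axin2, Rnf43 and Znrf3 are themselves Wnt targets, so they act as negative feedback.

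Library totals over all genes were 15739601 to 20467119 counts, except for female LKO replicate 1, the deepest, with 60324336. Levels are given as CPM, a gene's count relative to the total of its library, after TMM scaling, which sets libraries to a common level from the bulk of their genes, and levels of different genes are compared only as CPM per kilobase of exon (RPKM). Bcl6 was detected in every ileum, at 9.24 to 26.1 CPM. Markers of B-cell follicles, the lymphoid tissue of the ileal wall, stood apart in 4 libraries: the 9 genes of that list summed to 119 CPM in male WT replicate 2, 71.9 in female WT replicate 3, 194 in female LKO replicate 2 and 373 in female LKO replicate 3, and to at most 30.7 CPM in the other 12. Results are therefore given with and without these 4 libraries where that matters. In whole ileum, fewer cells of a type and less RNA per cell cannot be told apart.

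Per length, Olfm4 was the most abundant of the 10 genes, with a mean of 270.0 RPKM (range 211 to 340 over the 16 libraries), which placed it above 98.6% of the genes that passed the filter. Olfm4 encodes a secreted glycoprotein of crypt base cells and lies at chr14:80000302-80023141. Smoc2, for a secreted matrix protein of stem cells, averaged 30.2 ± 1.60 RPKM (SD, n = 16). Axin2 averaged 30.1 ± 3.70 RPKM (SD, n = 16), and Slc12a2, for the basolateral sodium, potassium and chloride cotransporter of crypt cells, 26.5 ± 2.74 RPKM (SD, n = 16). These 3 were close neighbors: Smoc2 was above Axin2 in 10 of 16 libraries, and Axin2 above Slc12a2 in 13.

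The next group was lower. Rnf43 averaged 9.03 RPKM, and it was below Slc12a2 and above Lgr5 in all 16 libraries. Lgr5, the R-spondin receptor that defines the stem cell, averaged 6.70 ± 0.867 RPKM (SD, n = 16). Sox9, a transcription factor of crypt progenitor and Paneth cells, averaged 6.64 ± 1.19 RPKM (SD, n = 16), and Lgr5 was the higher of the pair in only 8 of 16 libraries, so their order was not resolved. Tnfrsf19, also named Troy, is a receptor of the tumor necrosis factor family found on crypt base cells, and it averaged 2.997 RPKM. Ascl2, the transcription factor that sets stem cell identity, averaged 2.83 RPKM and was below Tnfrsf19 in 11 of 16 libraries. Znrf3 was the lowest at 1.70 RPKM.

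**Figure D1:**
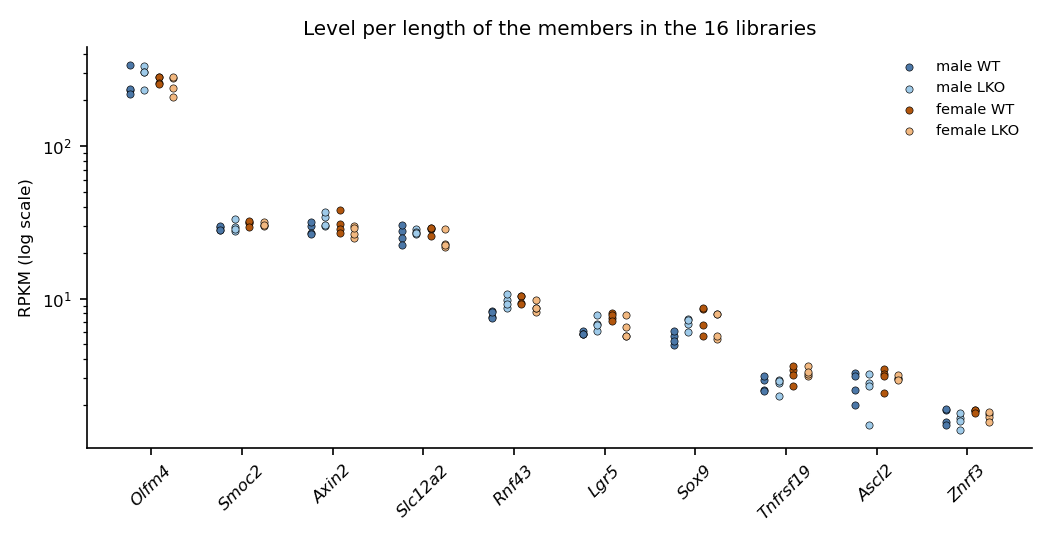
Level per length of the 10 genes, in RPKM on a log axis, with 1 point for each of the 16 libraries and a color for each group. Olfm4 stands alone at the top with a mean of 270.0 RPKM, Smoc2, Axin2 and Slc12a2 lie together at 26.5 to 30.2 RPKM, and Znrf3 is lowest at 1.70 RPKM.

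The genes also differed in how steady they were from mouse to mouse. Within groups the coefficient of variation was 4.96% for Smoc2, the steadiest, and 7.24% for Rnf43. It was 9.64% for Lgr5, 11.3% for Axin2, 14.9% for Olfm4, 15.96% for Sox9 and 18.4% for Ascl2. Ascl2 had the fewest counts of the 10, from 47 to 300 in a library, so that counting error adds to its spread. Its CPM values spanned 2.30-fold from the lowest to the highest library, against 1.20-fold for Smoc2.

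Among the stem cell markers, Lgr5 (chr10:115450314-115587780) had the most compact control group. It was measured at 28.7, 27.5, 27.5 and 27.3 CPM in the 4 male WT mice and at 37.9, 35.0, 36.4 and 33.7 CPM in the 4 female WT mice. All female controls were thus above all male controls. Male LKO mice had 28.6, 31.7, 31.6 and 36.5 CPM, with 3 of the 4 above the highest male WT mouse. Female LKO mice had 30.4, 26.7, 26.7 and 36.8 CPM, with 3 of the 4 below the lowest female WT mouse. The means of the LKO groups, 32.1 CPM in males and 30.15 in females, lay between those of the controls, while single LKO mice reached below the male controls and into the range of the female controls.

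Olfm4 was at 607 to 933 CPM in male WT, 641 to 926 in male LKO, 706 to 782 in female WT and 579 to 786 in female LKO mice. Each pair of groups overlapped. Smoc2 (chr17:14279506-14404790) stayed within 78.7 to 94.2 CPM in all 16 mice. Tnfrsf19 (chr14:60963834-61046855) was at 12.7 ± 1.43 CPM in male WT, 12.7 ± 1.36 in male LKO, 14.8 ± 1.86 in female WT and 15.3 ± 1.10 in female LKO mice (SD, n = 4 each). Ascl2 (chr7:142966822-142969264) was at 4.38, 4.08, 4.87 and 4.84 CPM in the same order, with the lowest value, 2.39 CPM, in male LKO replicate 1.

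Of the Wnt feedback genes, Rnf43 (chr11:87663087-87735539) was at 32.5, 35.8, 32.0 and 35.3 CPM in male WT mice and at 37.5, 41.9, 39.6 and 45.8 CPM in male LKO mice. These male groups did not overlap. Female WT mice had 44.5, 44.7, 40.2 and 39.8 CPM and female LKO mice 42.0, 35.3, 37.1 and 37.2 CPM, and 3 of the 4 female LKO values were below every female WT value. Axin2 (chr11:108920349-108950781) was at 127, 136, 115 and 113 CPM in male WT and at 127, 129, 146 and 156 CPM in male LKO mice. In females it was at 130.3, 162, 122 and 115 CPM in WT and at 127, 106, 113 and 123 CPM in LKO mice. The Axin2 groups overlapped in both sexes. Znrf3 (chr11:5276329-5381740), the partner of Rnf43, did not follow the same order: its group means were 12.2 CPM in male WT, 11.46 in male LKO, 13.1 in female WT and 12.1 in female LKO mice.

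Sox9 (chr11:112782210-112787757) was at 23.6, 20.5, 22.0 and 25.3 CPM in male WT and at 28.3, 30.6, 24.9 and 29.8 CPM in male LKO mice, where 3 of the 4 exceeded every male control. In female WT mice it ranged from 23.7 to 36.1 CPM and in female LKO mice from 22.7 to 33.0 CPM. Slc12a2 was at 172 ± 22.0 CPM in male WT and 178 ± 6.32 in male LKO mice (SD, n = 4 each). Female WT mice had 186, 167, 189 and 189 CPM, and female LKO mice 149, 142, 146 and 186 CPM, so 3 of the 4 female LKO mice were below every female control.

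**Figure D2:**
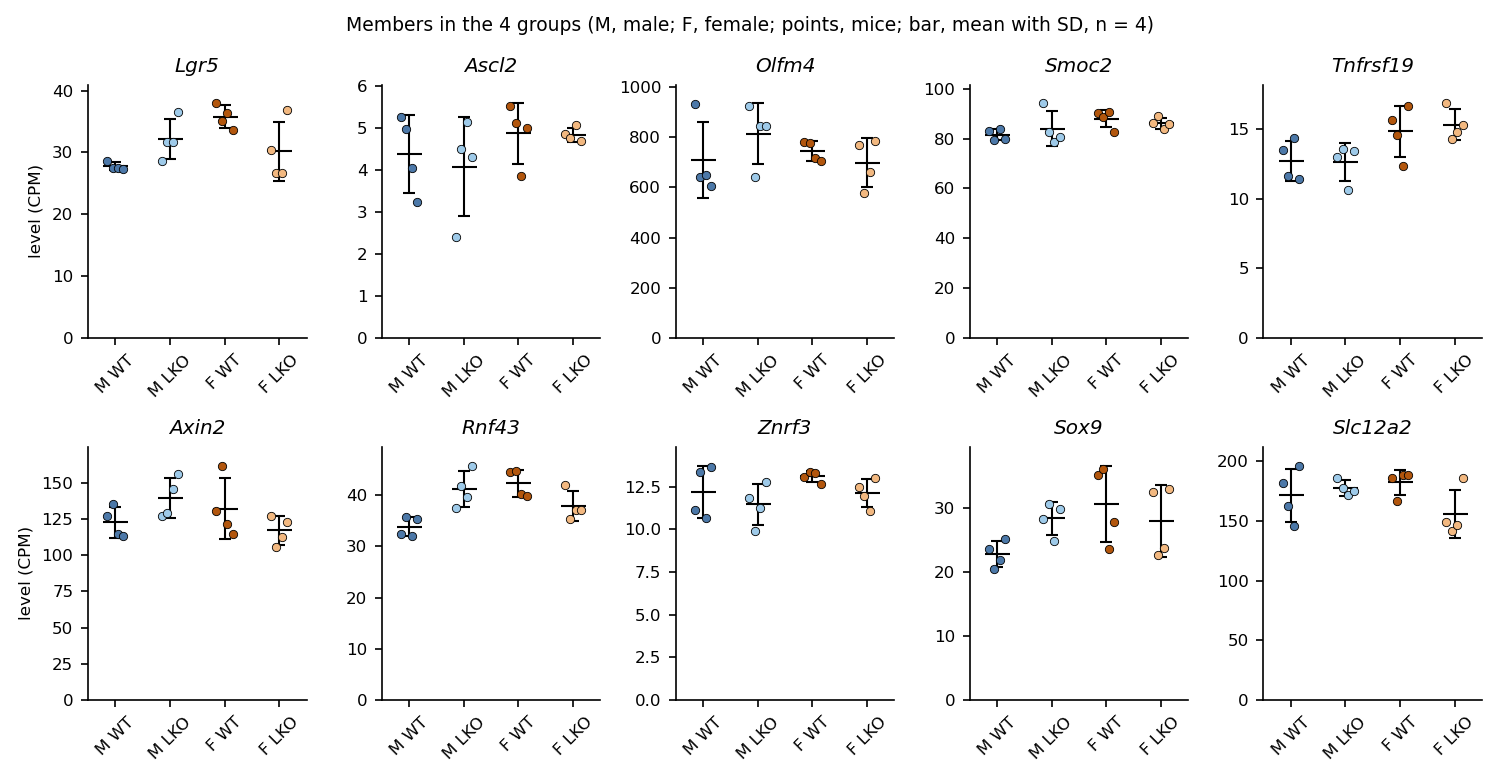
Level of each gene in CPM, with 1 point for each mouse and a bar for the group mean with its SD (n = 4, M for male and F for female). Rnf43 separates male WT (highest 35.8 CPM) from male LKO mice (lowest 37.5 CPM), and Lgr5 separates male WT (highest 28.7 CPM) from female WT mice (lowest 33.7 CPM).

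Wnt acts on its targets through TCF/LEF sites in DNA, so the upstream sequences were searched for the core of that motif. RefSeq promoter windows on GRCm38.p6, 250 bases before to 50 after a start site, were matched for 5 of the 10 genes, at 7 start sites (Ascl2, Olfm4, Axin2, and 2 sites each for Rnf43 and Tnfrsf19). They were searched on both strands for CTTTGA and CTTTGT, 2 core forms of the TCF/LEF motif that cannot overlap each other on 1 strand. Over 27025 genes, with 1 window each, 16.2% of windows held CTTTGA, 18.7% held CTTTGT and 31.3% held either. Of the 7 windows 1 held a match, at the inner start site of Tnfrsf19, where TCAAAG, the reverse strand of CTTTGA, begins at position -201 from the start. The transcript counted for Tnfrsf19 begins at the other site. The 250 bases before the start are shown for Axin2 and Rnf43, the pair with the highest correlation from mouse to mouse once group means were removed, and for this Tnfrsf19 site, 5′ to 3′ on the strand of the gene, with the match in capitals. The positions are chr11:108920099-108920348 on the plus strand for Axin2, chr11:87662837-87663086 on the plus strand for Rnf43 and chr14:61037988-61038237 on the minus strand for Tnfrsf19.
Axin2: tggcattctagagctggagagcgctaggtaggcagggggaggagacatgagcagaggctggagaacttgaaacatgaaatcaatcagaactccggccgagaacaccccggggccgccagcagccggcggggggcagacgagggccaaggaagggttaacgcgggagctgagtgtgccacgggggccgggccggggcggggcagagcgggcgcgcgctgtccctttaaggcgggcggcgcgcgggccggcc
Rnf43: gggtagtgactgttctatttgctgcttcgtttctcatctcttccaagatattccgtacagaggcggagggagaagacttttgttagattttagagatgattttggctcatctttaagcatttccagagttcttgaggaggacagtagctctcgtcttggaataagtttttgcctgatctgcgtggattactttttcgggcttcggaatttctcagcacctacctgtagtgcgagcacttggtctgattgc
Tnfrsf19: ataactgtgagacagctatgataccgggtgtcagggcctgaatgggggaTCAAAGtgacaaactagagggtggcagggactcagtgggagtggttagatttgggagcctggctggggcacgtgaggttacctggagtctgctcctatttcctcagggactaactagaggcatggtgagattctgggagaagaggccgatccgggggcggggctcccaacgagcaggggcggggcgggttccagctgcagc

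The windows of Axin2 and Rnf43 differed in base composition, with 70.0% and 46.7% G or C over their 300 bases. Neither held the searched letters, which says nothing about binding elsewhere in these genes.

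In males no member passed the test between genotypes once adjusted over all genes. The log2 fold change of LKO over WT was above 0 for 7 of the 10, where 49.2% of the 15169 genes tested were above 0, and the median was 0.12 against -0.0020 over all genes. At the adjusted threshold of 0.05, edgeR and DESeq2 called 0 of the 10, where 0.0527% and 0.385% of all genes did. At an unadjusted p below 0.05, 4 of the 10 were higher in LKO mice, against a background of 3.01% of genes. These were Sox9, Rnf43, Lgr5 and Axin2, and none of the 10 was lower at that threshold.

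Sox9 had the largest male difference of the 10, 0.32 ± 0.091 on the log2 scale (SE), a 1.25-fold higher level with a 95% interval of 1.09 to 1.43 (unadjusted p 0.00328, edgeR adjusted p 0.457). Rnf43 differed by 0.29 ± 0.080 (SE), 1.22-fold with an interval of 1.09 to 1.38 (unadjusted p 0.00254, edgeR adjusted p 0.411). It was the only one of the 10 whose male groups did not overlap, as was true of 2.97% of all genes tested. Lgr5 differed by 0.22 ± 0.084 (SE, unadjusted p 0.0208, edgeR adjusted p 0.853) and Axin2 by 0.19 ± 0.082 (SE, unadjusted p 0.0346, edgeR adjusted p 0.909). None of these holds as a call once all genes are accounted for.

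The other stem cell markers had intervals that included 0 in males. Smoc2 was at 0.05, with an interval of -0.09 to 0.19 on the log2 scale, and Tnfrsf19 by -0.0014, with an interval of -0.25 to 0.25. Olfm4 was at 0.21 with a wide interval of -0.15 to 0.56, and Ascl2 at -0.10 with an interval of -0.59 to 0.39. Znrf3, the third feedback gene, was at -0.08 (interval -0.34 to 0.18), and its difference from Rnf43 or Axin2 was not tested. Without male WT replicate 2, the male library rich in B-cell RNA, the same 4 genes were past an unadjusted p of 0.05, with 0.32 for Rnf43, 0.27 for Sox9, 0.24 for Axin2 and 0.21 for Lgr5.

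The male values depended on other choices more. Without male LKO replicate 4, Lgr5 was at 0.15 and Axin2 at 0.13, with unadjusted p of 0.101 and 0.143, while Sox9 (0.29) and Rnf43 (0.23) kept an unadjusted p below 0.05. With the number in the sample title as a covariate, Lgr5 was at 0.0093, Axin2 at 0.04, Rnf43 at 0.10 and Sox9 at 0.23, and none of these 4 had an unadjusted p below 0.05. Every male LKO mouse has a higher title number than every male WT mouse, so in males the number and the genotype are hard to tell apart.

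In females too no member passed the adjusted test. The log2 fold change of LKO over WT was below 0 for 9 of the 10 genes, while 51.8% of the 15298 genes tested were above 0, and the median was -0.12 against 0.0070 over all genes. EdgeR and DESeq2 called 0 of the 10 at the adjusted threshold, where 0.0392% and 1.02% of all genes did. Slc12a2 and Lgr5 were lower in LKO mice at an unadjusted p below 0.05, 2 of the 10 where 6.75% of all genes were. No member had female groups without overlap, as 6.31% of all genes had.

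Slc12a2 differed by -0.23 ± 0.085 in females (SE, interval -0.41 to -0.04, unadjusted p 0.02004, edgeR adjusted p 0.347). Lgr5 differed by -0.24 ± 0.099 (SE, interval -0.46 to -0.03, unadjusted p 0.0289, edgeR adjusted p 0.370). Rnf43 was at -0.15 (interval -0.31 to 0.0081), Axin2 at -0.17 (interval -0.40 to 0.05), Sox9 at -0.12 (interval -0.51 to 0.26) and Znrf3 at -0.11 (interval -0.30 to 0.08). Tnfrsf19 was the single gene above 0, at 0.05. The 2 female LKO mice rich in B-cell RNA, replicates 2 and 3, had the lowest levels of their group for all members except Smoc2 and Ascl2. Without them and female WT replicate 3, 2 LKO and 3 WT mice remained, Lgr5 was at -0.09 and Slc12a2 at -0.11 (unadjusted p 0.392 and 0.289), Olfm4 was at 0.04, and none of the 10 was past an unadjusted p of 0.05. The part of lymphoid tissue in the female values was not tested further.

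**Figure D3:**
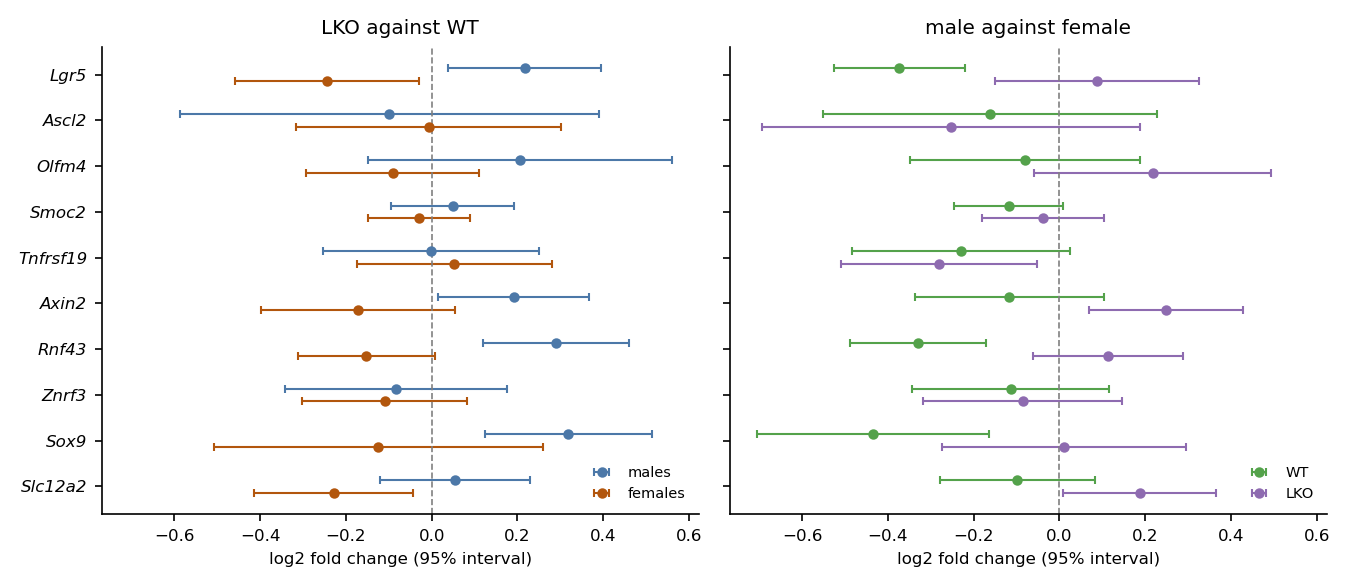
Log2 fold changes with 95% intervals for the 10 genes, LKO against WT on the left (males and females) and male against female on the right (WT and LKO). In males Rnf43 (0.29), Sox9 (0.32), Lgr5 (0.22) and Axin2 (0.19) lie above 0 with intervals that do not reach it, and in females Lgr5 (-0.24) and Slc12a2 (-0.23) lie below it.

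Whether the genotype effect differed between the sexes was tested directly, as the male log2 fold change minus the female one, over all 16 libraries. No gene passed the adjusted threshold, among 15598 in edgeR (0% called) or 20510 in DESeq2 (0% called), the members included. At an unadjusted p below 0.05, 5 of the 10 had a positive difference, where 2.58% of all genes did, and 8 of the 10 were above 0, where 48.8% of all genes were. Their median was 0.29 against -0.0046 over all genes. Rnf43 differed by 0.44 ± 0.11 (SE, unadjusted p 0.000624), Lgr5 by 0.46 ± 0.13 (SE, unadjusted p 0.00243), Axin2 by 0.36 ± 0.14 (SE, unadjusted p 0.0189), Slc12a2 by 0.28 ± 0.13 (SE, unadjusted p 0.0389) and Sox9 by 0.44 ± 0.20 (SE, unadjusted p 0.0408), each with an edgeR adjusted p of 0.845. Without the 4 libraries rich in B-cell RNA, 2 of the 10 remained past an unadjusted p of 0.05, Rnf43 at 0.43 (p 0.00473) and Axin2 at 0.35 (p 0.0418), while Lgr5 was at 0.30 (p 0.0543), Sox9 at 0.28 (p 0.0861) and Slc12a2 at 0.14 (p 0.372).

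In a fit of both sexes with sex as a covariate, all 10 genes lay between -0.10 (Znrf3) and 0.09 (Sox9), with 6 of 10 above 0 where 50.2% of all genes were. None passed the adjusted threshold in edgeR or DESeq2, where 0.269% and 1.45% of genes did, and none was past an unadjusted p of 0.05, where 11.2% of genes were. Lgr5 was at -0.02 with an interval of -0.19 to 0.15, so a shared change of Lgr5 above 1.11-fold or below 0.876-fold lies outside the interval.

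The sexes were then compared within each genotype. These comparisons share their libraries with the ones above and are not independent of them. In WT mice the log2 difference of males over females was below 0 for all 10 genes, with a median of -0.14 against -0.0073 over all 15229 genes, of which 48.2% were above 0. Lgr5 was the one called gene: it was lower in males by a log2 difference of -0.37 ± 0.072 (SE, 0.772-fold with an interval of 0.694 to 0.858, edgeR adjusted p 0.0464). The background was 0.25% of genes called by edgeR, and 2.45% by DESeq2, which called Lgr5 (adjusted p 0.00183) and Rnf43 (adjusted p 0.0139). DESeq2 gave no adjusted p for Ascl2 in this comparison. The call on Lgr5 held in 5 of 19 alternatives, DESeq2 included. Of the 8 fits that left out 1 mouse it held only without female WT replicate 4 (edgeR adjusted p 0.0408 to 0.146 over the 8), and without the libraries rich in B-cell RNA the edgeR adjusted p was 0.145. The difference stayed between -0.35 and -0.40 in the 8 fits. In the same comparison all 9 genes of the Paneth list, the secretory neighbors of the stem cells, were lower in males. Each had an unadjusted p below 0.05, where 7.72% of all genes were lower at that threshold. The median of the Paneth genes was -0.67, and edgeR called 3: Itln1 (-0.69, adjusted p 0.0439), Defa17 (-0.61, adjusted p 0.0464) and Defa24 (-0.67, adjusted p 0.0317). Their part in the Lgr5 value was not tested.

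Rnf43 was lower in male than in female controls by -0.33 ± 0.074 (SE, edgeR adjusted p 0.0947), and Sox9 by -0.44 ± 0.13 (SE, edgeR adjusted p 0.183). Together with Lgr5 they were the 3 of 10 that were lower at an unadjusted p below 0.05, where 7.72% of all genes were. Lgr5 and Rnf43 had no overlap between the sexes, and 8.38% of all genes shared that property. The remaining 7 genes were at -0.08 (Olfm4) to -0.23 (Tnfrsf19) with intervals that included 0.

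In LKO mice the sex difference was mixed. Of the 10 genes 6 were higher and 4 lower in males, where 49.9% of the 15250 genes were higher, with a median of 0.05 against -0.0005 over all genes. None was called by edgeR or DESeq2, which called 0.0984% and 7.5% of all genes. Axin2 at 0.25 (interval 0.07 to 0.43, unadjusted p 0.0104) and Slc12a2 at 0.19 (interval 0.0082 to 0.37, unadjusted p 0.0418) were higher, 2 of 10 where 10.9% of genes were. Tnfrsf19 at -0.28 (interval -0.51 to -0.05, unadjusted p 0.0201) was lower, 1 of 10 where 11.7% of genes were. Axin2 and Tnfrsf19 had groups without overlap, as had 12.9% of all genes. For Axin2 the gap was smaller than the rounding. The lowest male and the highest female value were both 127 CPM, and the other 3 males were above every female. Without female LKO replicate 4, Slc12a2 was at 0.28 with an edgeR adjusted p of 0.0333 and so passed the threshold, in a fit that called 665 of 15340 genes against 15 of 15250 with all 8 libraries. Without female LKO replicates 2 and 3, which are rich in B-cell RNA, 6 libraries remained. Axin2 was then at 0.15 and Slc12a2 at 0.08 (edgeR unadjusted p 0.116 and 0.367). Tnfrsf19 was at -0.35 and Sox9 at -0.21 (edgeR unadjusted p 0.0158 and 0.0484). With all 8 libraries Lgr5, at 0.09 (interval -0.15 to 0.33), had no detectable sex difference in LKO mice.

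The female WT group had the highest mean of the 4 groups for 7 of the 10 genes, and male WT had the highest for none. Counting genes above their own mean over the 16 libraries, male WT mice had 1 to 3 of the 10, male LKO mice 4 to 7 and female WT mice 5 to 10. Female LKO mice split into replicates 1 and 4 with 7 and 8 genes above the mean and replicates 2 and 3 with 3 and 2. The latter 2 are the mice with the most B-cell RNA of the series.

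**Figure D4:**
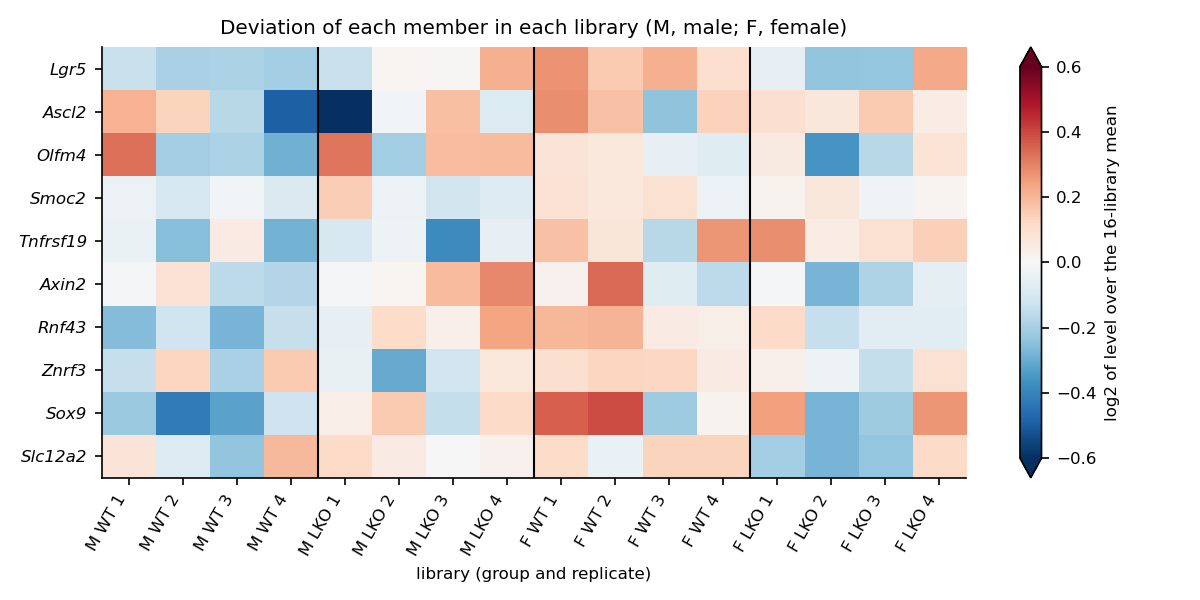
Log2 of each gene's level over its mean in the 16 libraries, with genes in rows, libraries in columns (M, male and F, female) and lines between groups. The male WT columns are mostly blue (1 to 3 of 10 genes above their mean), and female WT replicates 1 and 2 are mostly red (10 and 9 genes above their mean).

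The other genes of the pathway were followed in lists chosen for their role. Of 12 further Wnt targets, all tested, 3 were higher at an unadjusted p below 0.05 in male LKO mice, where 3.01% of all genes were. None was called by edgeR, and the median was 0.12. Here too the title number and the genotype are hard to tell apart in males. Myc, a driver of crypt proliferation, was at 0.36 ± 0.088 (SE, edgeR adjusted p 0.271), with 39.2 ± 1.91 CPM in WT and 50.1 ± 6.29 CPM in LKO males. Ephb3, a receptor that positions Paneth cells, was at 0.23 (edgeR adjusted p 0.856). In females 10 of the 12 targets were above 0, where 51.8% of all genes were, with a median of 0.11. The highest values were those of Lef1 (1.48), Notum (0.68) and Tcf7 (0.61), and Lef1 and Tcf7 are also expressed by lymphocytes. Lef1 and Notum were low, with means of 0.99 and 0.70 CPM over the 16 libraries, against 14.7 CPM for Tcf7. None of these 3 had an unadjusted p below 0.05. The B-cell list had a median of 2.01 in the same comparison, and its part in these values was not tested. Apcdd1, a Wnt antagonist and target, was at 0.35 (edgeR adjusted p 0.319), while Cdx1, an intestinal transcription factor, was at 0.11. Of the 12 targets only Apcdd1 was higher in females at an unadjusted p below 0.05, as were 758 of 15298 genes.

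Of 16 other stem cell markers 15 were tested. None had an unadjusted p below 0.05 in males, where the median was -0.03 and the genes with the smallest p were Scn2b at -0.17 and Slc14a1 at 0.34. In females 14 of the 15 were below 0, the median was -0.10, and 3 were lower at an unadjusted p below 0.05, where 6.75% of all genes were lower and 51.8% were above 0. This comparison includes the female libraries rich in B-cell RNA, whose part in these values was not tested. Among these was Lrig1, an inhibitor of growth factor receptors in stem cells, at -0.14 (edgeR adjusted p 0.357), with 105 CPM in WT and 94.7 CPM in LKO females. Scn2b was at -0.26 (edgeR adjusted p 0.354). In male over female controls 11 of the 15 were below 0 and 4 above, where 48.2% of all genes were above 0. Their median was -0.04, against -0.14 for the 10 members.

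The list of Wnt and R-spondin ligands with their secretion factors held 16 genes. Of the 13 tested in males, 1 was higher at an unadjusted p below 0.05, where 3.01% of all genes were: Wnt3, the Wnt ligand that Paneth cells make. It was at 7.53 ± 1.39 CPM in male WT, 11.3 ± 1.15 in male LKO, 10.3 ± 1.65 in female WT and 11.2 ± 1.33 in female LKO mice (SD, n = 4 each). The male difference was 0.59 ± 0.14 on the log2 scale (SE), with an adjusted p of 0.277 in edgeR and 0.0491 in DESeq2. In females 1 of 14 genes of this list, Wnt2b of the crypt stroma, was lower at an unadjusted p below 0.05, where 6.75% of all genes were. It was at -0.26 (edgeR adjusted p 0.351), in a comparison that includes the female libraries rich in B-cell RNA. Wnt4 was at -0.35 in males and -0.38 in females, with edgeR adjusted p of 1.00 and 0.427.

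Among the 28 receptors and signal transducers tested of 29, Fzd1 was at 0.24 in males (edgeR adjusted p 0.704). In females 5 of the 28 were lower at an unadjusted p below 0.05, where 6.75% of all genes were, and 1 was higher, as were 758 of 15298 genes. This comparison includes the libraries rich in B-cell RNA, whose part was not tested. The 2 genes with the smallest p were the tankyrases, which mark axin for degradation. Tnks was at -0.36 (edgeR adjusted p 0.317) and Tnks2 at -0.21 (edgeR adjusted p 0.319). Tnks was at -0.22 in males. Of 10 secreted inhibitors, 6 were tested in males, where Sfrp1 was at 0.34 (edgeR adjusted p 0.285), and 7 in females, where Frzb was at -0.68 (edgeR adjusted p 0.313). Dkk3 was at -0.21 and -0.15. In edgeR no gene of the Wnt target, stem cell, ligand, transducer or inhibitor lists was called between genotypes in either sex.

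Notch and BMP signals act beside Wnt in the crypt. Of 12 Notch pathway genes none had an unadjusted p below 0.05 in either sex, with medians of 0.0055 in males and -0.02 in females. The genes with the smallest p were Notch2 at -0.11 and Jag2 at 0.20 in males, and Jag1 at -0.26 and Notch1 at -0.18 in females. The BMP pathway, which opposes Wnt along the crypt, was followed in 15 genes. At an unadjusted p below 0.05, 1 was higher in males (Smad7 at 0.18), where 3.01% of all genes were, with Bmp2 next at 0.15. In females 3 were lower at that threshold, where 6.75% of all genes were. Bmpr1a, the BMP receptor, was at -0.29 in females, with an adjusted p of 0.206 in edgeR and 0.0462 in DESeq2, and Bmp5 was at -0.33 (edgeR adjusted p 0.318). Female libraries rich in B-cell RNA enter these values, and their part was not tested.

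Paneth cells neighbor the stem cells, and among the 14 further lists theirs was the only one with genes called by edgeR between genotypes within a sex. All 9 Paneth genes were above 0 in males, where 49.2% of all genes were, with a median of 0.46. EdgeR called 3 as higher in LKO mice, where it called 0.0527% of all genes. They were the lysozyme Lyz1 at 0.64 ± 0.086 (SE, edgeR adjusted p 0.00890), the protease Mmp7 at 0.47 ± 0.079 (SE, edgeR adjusted p 0.0442) and the lectin Itln1 at 0.66 ± 0.069 (SE, edgeR adjusted p 0.000609). The title number and the genotype are hard to tell apart in males here as well. With that number as a covariate, edgeR called 3 of 15169 genes in males, against 8 without it. The summed level of the list was 13420 to 15420 CPM in male WT and 18810 to 23350 CPM in male LKO mice, and in females 17890 to 25690 CPM in WT and 21790 to 24770 CPM in LKO mice. In females 6 of the 9 were above 0, none passed an unadjusted p of 0.05, and Defa17 was at 0.17 and Defa24 at 0.15. No Paneth gene was at 0 in all libraries. Whether Paneth cells have a part in the values of Sox9, which they express, or of the other members was not tested.

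For the 15 genes of dividing cells no difference between genotypes was detected. None had an unadjusted p below 0.05, the medians were -0.0046 in males and 0.04 in females, and Aurka at 0.13 and Ube2c at 0.10 had the smallest p in males, Mcm7 at 0.11 and Mki67 at -0.10 in females. Their summed level was 1130.0 to 1434 CPM in male WT, 1147 to 1348 in male LKO, 1080.0 to 1204 in female WT and 1059 to 1205 in female LKO mice. In male over female controls all 15 were above 0, where 48.2% of all genes were. Their median was 0.12, opposite in sign to the 10 members. Of the 15, 2 were higher at an unadjusted p below 0.05, as were 946 of 15229 genes.

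Of the other cells of the ileal wall, the 11 villus enterocyte genes had medians of 0.0021 in males, with Anpep at -0.27 and Alpi at 0.17, and 0.16 in females, where Apoa4, an apolipoprotein of fat absorption, was at 1.27 (adjusted p 0.295 in edgeR and 0.0199 in DESeq2) and Sis at -0.47. The summed enterocyte level was 22380 to 26410 CPM in male WT, 20820 to 24270 in male LKO, 18820 to 23310 in female WT and 19180 to 24250 in female LKO mice. The B-cell list had medians of -0.71 in males (6 of 9 tested, Cxcl13 at -0.58 and Ms4a1 at -2.34) and 2.01 in females (7 of 9 tested, Cd79a at 1.56 and Cd79b at 1.49), with no called gene. Its summed level was 20.6 to 119 CPM in male WT, 24.4 to 27.1 in male LKO, 25.3 to 71.9 in female WT and 30.1 to 373 in female LKO mice.

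Smooth muscle genes had medians of -0.09 in males and 0.09 in females, with Myh11 at -0.17 and Lmod1 at -0.21 in males, and Myl9 at 0.13 and Acta2 at 0.09 in females. All 9 were below 0 in male over female controls, with a median of -0.27. Of the 9, 7 were lower at an unadjusted p below 0.05, where 7.72% of all genes were. The sum of the muscle genes was 3871 to 4315 CPM in male WT and 4215 to 6371 CPM in female WT mice. Stromal genes had medians of 0.21 and 0.03, with Cd34 at 0.31 and Lum at 0.22 in males and at 0.25 and -0.19 in females. EdgeR called 2 of these 9 as lower in male than in female controls, as were 23 of 15229 genes. Enteric glia and neuron genes had medians of 0.04 and 0.14, with Ret at 0.21 and Gfap at -0.52 in males, and Uchl1 at 0.23 and Gfap at 0.35 in females. EdgeR called no gene of these lists between genotypes. The part of any of these cells in the member values was not tested.

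**Figure D5:**
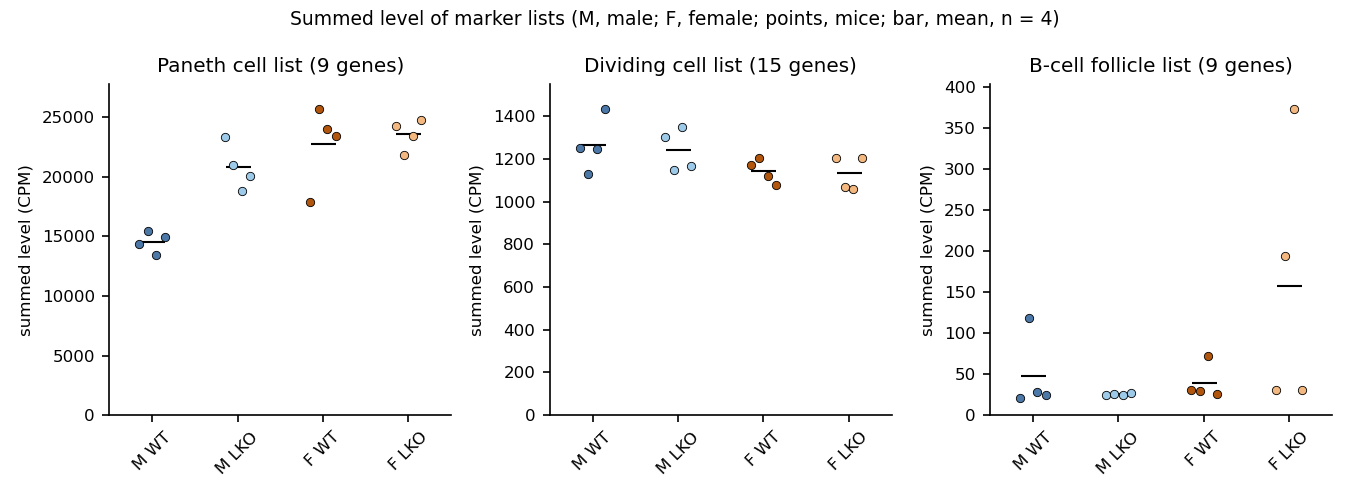
Summed level in CPM of the Paneth cell (9 genes), dividing cell (15 genes) and B-cell follicle (9 genes) lists, with 1 point for each mouse and a bar for the group mean (n = 4). Male WT mice are lowest for the Paneth list (13420 to 15420 CPM), the dividing cell list overlaps between genotypes, and female LKO replicates 2 and 3 stand out in the B-cell list (194 and 373 CPM).

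Finally, the members were compared with each other across the 16 mice, after each group was centered on its own mean so that group differences do not enter. Of 45 pairs 33 had a Pearson r above 0, with a median of 0.21, and none passed a permutation test within groups (100000 permutations) after Benjamini-Hochberg adjustment. The highest was Axin2 with Rnf43, 2 targets that both act as brakes on the pathway (r 0.66, permutation p 0.0114, adjusted p 0.505, Spearman rho 0.77, permutation p 0.00314, adjusted p 0.141), and r was 0.57 without the 2 mice farthest from the median of Axin2. Sox9 with Rnf43 was next (r 0.58, permutation p 0.0338, adjusted p 0.505, rho 0.56, permutation p 0.0421, adjusted p 0.453, r 0.49 without the 2 farthest mice). The lowest was Ascl2 with Smoc2 (r -0.65, permutation p 0.0977, adjusted p 0.505, rho -0.48, permutation p 0.0954, adjusted p 0.453, r -0.49 without the 2 farthest mice).

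Correlations across the whole table are descriptions over 14422 genes searched. For each of 4 members, the 5 genes whose log2 CPM over the 16 libraries was most like its own included no other member. For Lgr5 they were Car8 (r 0.88), Lrrcc1 (0.85), Mbtd1 (0.83), Farp1 (0.82) and Pkdrej (0.81), with Rnf43 at rank 28 (r 0.74, or 0.44 after centering on group means) and Sox9 at rank 61 (r 0.70, or 0.53 after centering). For Ascl2 they were Procr (0.87), Emid1 (0.85), R3hcc1 (0.82), Ptk7 (0.79) and Slc9a3r2 (0.79). For Olfm4 they were Eif3e (0.87), Lancl2 (0.86), Hnrnpll (0.85), Nsa2 (0.85) and Hmgn5 (0.84). For Axin2 they were Ednra (0.83), Timm29 (0.81), Wdr45b (0.78), Cwc25 (0.78) and Fhdc1 (0.75), with Rnf43 at rank 81 (r 0.62). Differences between the groups enter these correlations, as do depth and tissue makeup.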

How the data were processed

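The authors prepared stranded poly(A) libraries, sequenced them as single 100-base reads, aligned these to mm10 with STAR 2.5.2 and counted reads over exons with HOMER 4.10, keeping 1 RefSeq transcript per gene, so the deposited values are raw counts per gene. The annotation version and the strand option are not given in the sources used here. The authors tested counts with DESeq2.

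Groups and replicate numbers came from the sample titles. All 16 libraries, each from 1 mouse, were used. For each comparison edgeR 4.0.16 (under R 4.3.3) gave a quasi-likelihood F-test (TMM scaling, filterByExpr by group, robust fit), with Benjamini-Hochberg adjustment over all genes tested and a threshold of 0.05. DESeq2 1.42.0 was the main alternative. Its shares are over the genes to which it gave an adjusted p, 10632 to 20510 depending on the comparison. Comparisons of 2 groups used their 8 libraries, and the interaction and the effect over both sexes used all 16. The standard error is the log2 fold change over the square root of F. Intervals cover 95%. Correlations used log2 CPM with a prior count of 2. The fits were tested on simulated data. The alternatives also covered scaling, filters, the fit, the samples used, the numbers in the titles, depth and each left-out mouse, and 1, chosen after seeing the data, left out libraries whose B-cell list sum was above 2 times the median.

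The members and the 14 further gene lists were chosen with earlier results of these data known. All members are named in every comparison. From each other list, the genes called between genotypes within a sex are named, or else the 2 with the smallest p at a mean of at least 1 CPM, and for 4 members the 5 genes with the highest Pearson r. Lef1, Notum and Tcf7 in females, and the Paneth genes called between male and female WT mice, were named after their values were seen. At these depths 3 counts, the limit that a count of 0 allows, equal 0.0485 to 0.191 CPM, which covers counting error only. Sequences are from RefSeq on GRCm38.p6, the assembly of mm10.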

Additional observations from a re-analysis of the deposited data

Results flagged for a closer look

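In 40 groups of 4 mice (10 genes in 4 groups), 4 held a mouse whose gap to its neighbor exceeded the 95% critical share of 0.829 of the group's range, where chance marks about 1 group in 20. Male WT replicate 1 had the highest Lgr5 (28.7 CPM) and the highest Olfm4 (933 CPM) of its group. For Slc12a2, female WT replicate 2 was low at 167 CPM and female LKO replicate 4 was high at 186 CPM.

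The genotype effect differed between the sexes, at an unadjusted p below 0.05 only, by a log2 difference of 0.46 for Lgr5, 0.36 for Axin2, 0.44 for Sox9, 0.44 for Rnf43 and 0.28 for Slc12a2. The edgeR adjusted p was 0.845 for each, and 0.448 to 0.995 over the fits that left out 1 mouse. Without the libraries rich in B-cell RNA, the differences were 0.30 for Lgr5, 0.28 for Sox9 and 0.14 for Slc12a2, with unadjusted p of 0.0543, 0.0861 and 0.372, and 0.43 for Rnf43 and 0.35 for Axin2, which kept an unadjusted p below 0.05.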

How the results depend on the processing

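The count of members called stayed at 0 in 4 of the 6 comparisons under the alternatives run. In male against female WT it was 1, but 2 with DESeq2, 0 to 1 when 1 mouse was left out, and 0 with RLE scaling, at least 10 counts in every library, the non-robust fit, all 16 libraries in the fit, title number as a covariate, the replicate block, or without the libraries rich in B-cell follicle RNA. In male against female LKO it was 0 to 1 when 1 mouse was left out. Replicate numbers did not pair the mice (correlations -0.105 to 0.256, 2 of 16 over 0.1). Under the replicate block Lgr5 in male against female WT was at -0.37 with an edgeR adjusted p of 0.114.

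Some log2 differences changed sign, of which the largest after the change was Sox9 between LKO sexes. With the deepest library thinned, Ascl2 in females was at 0.055. With sets of title numbers as a factor, Axin2 over both sexes was at -0.032, Rnf43 over both sexes at -0.067 and Sox9 over both sexes at -0.039. With title number as a covariate, Ascl2 in females was at 0.027, Axin2 over both sexes at -0.0076, Lgr5 between LKO sexes at -0.044, Smoc2 between LKO sexes at 0.034, Sox9 in females at 0.0062 and Znrf3 in the interaction at -0.0040. With upper quartile scaling, Ascl2 in females was at 0.0100, Sox9 between LKO sexes at -0.038 and Znrf3 in the interaction at -0.0024. Without libraries rich in B-cell follicle RNA, Ascl2 in the interaction was at 0.084, Lgr5 over both sexes at 0.079, Lgr5 between LKO sexes at -0.058, Olfm4 in females at 0.043, Sox9 between LKO sexes at -0.21, Tnfrsf19 over both sexes at -0.0086 and Znrf3 in the interaction at -0.0061. Leaving out 1 mouse at a time gave both signs for some values. In males the range was, for Ascl2, from -0.23 to 0.093, Smoc2 from -0.0078 to 0.077, Tnfrsf19 from -0.054 to 0.070, Slc12a2 from -0.015 to 0.12. In females it was, for Ascl2, from -0.10 to 0.056, Tnfrsf19 from -0.024 to 0.11. Between LKO sexes Sox9 ranged from -0.076 to 0.10. In the interaction it was, for Ascl2, from -0.23 to 0.094, Tnfrsf19 from -0.12 to 0.023, Znrf3 from -0.038 to 0.085. Over both sexes it was, for Lgr5, from -0.066 to 0.023, Ascl2 from -0.11 to 0.037, Smoc2 from -0.021 to 0.018, Axin2 from -0.032 to 0.069, Tnfrsf19 from -0.019 to 0.058. The causes were not tested. Depth limits Ascl2 most, with 47 to 300 counts in a library.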

Other observations

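Bcl6 itself, which the albumin promoter should leave intact in the ileum, was at 15.9 ± 1.61 CPM in male WT, 18.9 ± 2.05 in male LKO, 12.1 ± 2.92 in female WT and 20.7 ± 5.03 in female LKO mice (SD, n = 4 each). The highest Bcl6 values of the series, 26.1 and 23.6 CPM, were in female LKO replicates 3 and 2, the mice with the highest B-cell list sums. Female LKO replicates 1 and 4, which are not rich in B-cell RNA, had 18.0 and 15.2 CPM. Both were also above the highest female WT mouse, at 15.1 CPM. The female groups thus did not overlap, as was true of 6.31% of all genes tested. The part of lymphoid tissue in the Bcl6 values was not tested.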
